A study of Mus musculus with 18 samples.

Results

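Cerebellar granule neuron progenitors (CGNP) were taken from wild-type NMRI mice at postnatal day 7, cultured with sonic hedgehog (SHH) and exposed to the DOT1L inhibitor SGC0946 for 4 h after 1 day in vitro. The 6 CGNP arrays, found by the cell type and treatment in their titles, were 6 of the 18 Affymetrix Mouse Gene 2.0 ST arrays of the series: 3 with SGC0946 and 3 with the solvent dimethyl sulfoxide (DMSO). Each treated dish had a control dish of the same animals. The numbers in the titles name mouse 29, mouse 30 and a pool of both, so that the 3 cultures rested on 2 mice and p-values measured the spread between these dishes. The sample labels give the dose in millimolar and the methods in micromolar, and the arrays do not settle it. The other arrays served for comparison only: 4 cultures of differentiating granule neurons (CGN) of NMRI mice, grown with serum and treated for 44 h (2 with SGC0946, 2 with DMSO), and 6 cerebella of C57BL6/J mice at postnatal day 3. Of the cerebella, 3 were Dot1l f/f Atoh1 cre/+ (cKO), in which Cre acts in Atoh1-expressing progenitors and their progeny only, and 3 were Dot1l f/f or f/+ controls without Cre; the labels of 1 control disagree on its floxed alleles. A further 2 CGN arrays carried contradictory treatment labels and were not compared.

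DOT1L is the methyltransferase of a lysine in the core of histone H3 (H3K79), whose methylation is found over the bodies of transcribed genes. SGC0946 competes for its methyl donor site. Granule progenitors divide in the outer layer of the early postnatal cerebellum in response to SHH, and sterols are needed both for membranes and for SHH signalling. The SREBP transcription factors govern the genes of sterol and fatty acid synthesis: when membrane sterol is low, SCAP carries SREBP to the Golgi, where proteases release its active part, and INSIG proteins hold the complex back when sterol is sufficient. The arrays measured RNA and not H3K79 methylation, and in RNA of whole dishes fewer cells of a type and less RNA per cell cannot be told apart.

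After 4 h of SGC0946, 14 of 22180 genes rose (0.0631%) and 2 fell (0.00902%) at an adjusted p below 0.05 in limma's moderated test. Of the 14, 12 were members of 4 lists of lipid genes: 7 encode enzymes of sterol synthesis, 3 enzymes of fatty acid or ketone body use, and 2 proteins of sterol transport and SREBP control. The other 2 were *Pank1*, encoding a kinase at the entry to coenzyme A synthesis, and *Pcyt1b*, encoding an enzyme of phosphatidylcholine synthesis. The increases ran from 1.36 on the log2 scale for *Scd1* (2.57-fold) to 0.50 for *Fdft1* (1.41-fold). In all 14 genes every SGC0946 array lay above every DMSO array, as in 5.3% of all genes. Because the test on these same arrays chose the 14, this separation is no further support. At an unadjusted p of at most 0.05, 550 genes were higher (2.48%) and 466 lower (2.1%), of which 47 and 35 changed at least 1.5-fold.

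**Figure D1:**
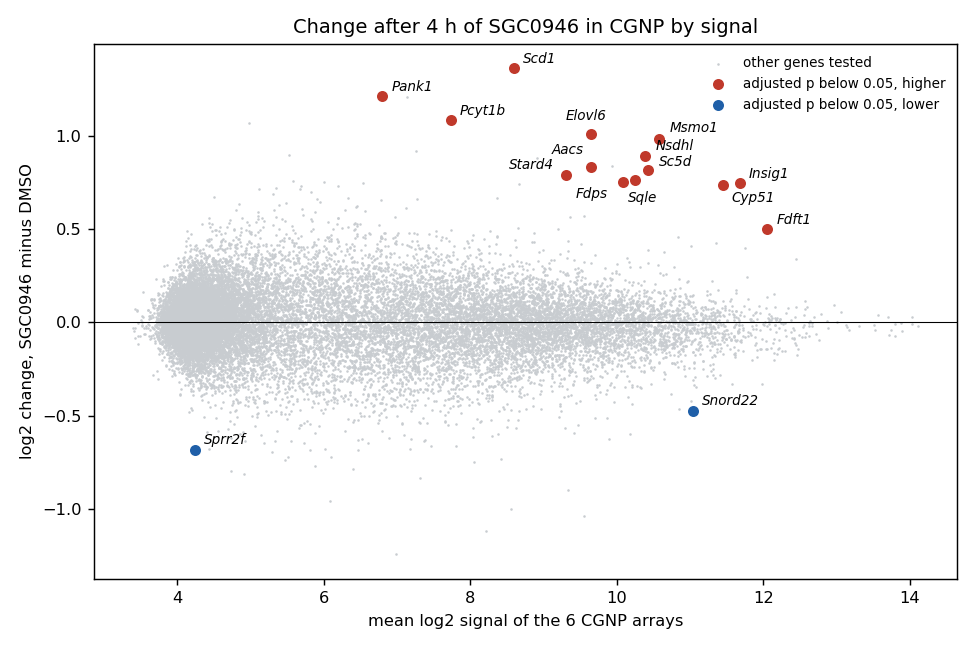
Each point is 1 of 22180 genes, with the mean log2 signal of the 6 CGNP arrays on the horizontal axis and the log2 change of SGC0946 minus DMSO on the vertical axis. The 14 genes past the adjusted test on the upper side (red) lay between 0.50 and 1.36, and the 2 on the lower side (blue) were *Sprr2f* and *Snord22*.

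Promoters of genes that rose together are shown because SREBP acts at such sequences with the factors that bind CCAAT and GC boxes. RefSeq windows of 250 bases before to 50 bases after the annotated start (build GRCm38.p6) were at hand for 9 of the 14 genes. The pentamer CCAAT, read on both strands, occurred in the windows of 7 of these 9 genes and in 41.6% of 16918 genes tested. Of the 15 measured genes of sterol synthesis with a window, 15 contained it. The hexamer GGGCGG (the core of a GC box) occurred in 5 of the 9 and in 13 of the 15, against 49.6% of all genes. The sterol regulatory element in the strict form TCACNCCAC was in no window of the 9 genes, in that of *Hmgcs1* only among the 15, and in 1.4% of all genes; other forms of the element were not searched. The 3 sequences below belong to the sterol genes with the smallest p-values that hold CCAAT, with each CCAAT or its complement ATTGG in capitals.
Msmo1, chr8:64733529-64733828, minus strand: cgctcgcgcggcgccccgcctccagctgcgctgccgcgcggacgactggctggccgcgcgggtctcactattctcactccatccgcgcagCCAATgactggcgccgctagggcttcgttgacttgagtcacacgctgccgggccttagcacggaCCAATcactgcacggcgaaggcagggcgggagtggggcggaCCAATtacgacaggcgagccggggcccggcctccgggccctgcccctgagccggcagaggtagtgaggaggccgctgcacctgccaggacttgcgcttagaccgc
Nsdhl, chrX:72918271-72918570, plus strand: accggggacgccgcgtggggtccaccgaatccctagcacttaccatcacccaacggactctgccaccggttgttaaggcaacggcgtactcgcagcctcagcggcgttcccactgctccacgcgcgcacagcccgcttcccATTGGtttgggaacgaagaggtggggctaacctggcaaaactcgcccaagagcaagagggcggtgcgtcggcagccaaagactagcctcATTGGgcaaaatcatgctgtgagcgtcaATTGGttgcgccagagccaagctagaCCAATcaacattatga
Insig1, chr5:28071162-28071461, plus strand: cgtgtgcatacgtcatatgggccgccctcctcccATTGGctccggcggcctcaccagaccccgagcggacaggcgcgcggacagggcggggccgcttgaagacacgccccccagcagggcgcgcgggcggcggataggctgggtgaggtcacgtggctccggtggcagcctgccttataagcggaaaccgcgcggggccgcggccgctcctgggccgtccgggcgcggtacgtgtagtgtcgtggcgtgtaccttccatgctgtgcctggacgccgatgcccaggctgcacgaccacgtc
The *Nsdhl* window held 4 such matches, that of *Msmo1* 3 and that of *Insig1* 1. A match describes the letters of the window and no binding was measured.

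The first part of the pathway builds farnesyl units from acetyl groups and joins them to squalene. Of its 7 measured genes 2 rose past the adjusted test, 5 were higher at an unadjusted p of at most 0.05, none was lower, and their median change was 0.39, against 0.0038 over all genes. *Fdps*, which makes farnesyl diphosphate, read 9.73, 9.67 and 9.72 with DMSO (cultures 29, 30 and pooled) and 10.63, 10.36 and 10.41 with SGC0946. Its groups stood clearly apart and the change was 0.75 (standard error 0.0959, adjusted p = 0.01759). *Fdft1*, the squalene synthase that commits farnesyl units to sterols, was one of the brightest of the genes that rose. It read 11.72, 11.92 and 11.77 with DMSO and 12.29, 12.36 and 12.26 with SGC0946 (change 0.50, standard error 0.064, adjusted p = 0.01759).

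*Mvk*, mevalonate kinase, read 8.19, 8.42 and 8.27 with DMSO and 8.96, 9.13 and 9.01 with SGC0946, without overlap, but missed the adjusted test (change 0.74, adjusted p = 0.07688). *Hmgcs1*, a synthase near the start of the pathway, was the brightest gene of the list. Its 3 SGC0946 values (12.74, 12.43 and 12.67) exceeded its 3 DMSO values (12.23, 12.33 and 12.27) by a mean of 0.34 (adjusted p = 0.5039). *Mvd* overlapped between groups because its SGC0946 value in culture 30 was 10.29, against 10.76 and 10.82 in the other cultures and 10.20 to 10.30 with DMSO. *Pmvk* (change 0.13) and *Ggps1* (change -0.07), the latter on a branch toward protein prenylation, did not pass.

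From squalene onward, the enzymes close the ring and trim it to cholesterol. All 11 measured genes had a higher mean with SGC0946, 5 rose past the adjusted test, 10 were higher at the unadjusted threshold, 10 lay above every DMSO array (5.3% of all genes did), and their median change was 0.76. The following values are in the order of the pathway. *Sqle*, the epoxidase that makes the ring precursor, read 9.74, 10.05 and 9.81 with DMSO and 10.70, 10.76 and 10.43 with SGC0946 (change 0.76, adjusted p = 0.04267). *Lss*, which closes the ring, read 9.57, 9.53 and 9.45 with DMSO and 10.52, 10.00 and 10.55 with SGC0946 (change 0.84, adjusted p = 0.07688). Without the lower array of culture 30 the change was 1.02 with an adjusted p of 0.001158, in a range of 0.001158 to 0.9661 over 19 alternatives that included 0.1305 with the culture as a block.

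*Cyp51*, the demethylase of lanosterol, read 10.94, 11.12 and 11.17 with DMSO and 11.86, 11.70 and 11.88 with SGC0946 (change 0.74, standard error 0.0794, adjusted p = 0.005929). *Msmo1* and *Nsdhl* act in turn on the methyl groups at carbon 4 of the sterol. *Msmo1* read 10.15, 10.03 and 10.09 with DMSO and 11.10, 11.15 and 10.97 with SGC0946 (change 0.98, standard error 0.0819, adjusted p = 0.001752). *Nsdhl* read 9.92, 9.98 and 9.91 with DMSO and 10.91, 10.82 and 10.76 with SGC0946 (change 0.89, standard error 0.0815, adjusted p = 0.001752). In both genes the gap between the groups was several times the range within either group. *Hsd17b7*, the ketoreductase of the same step, read 8.26, 8.73 and 8.44 with DMSO and 9.41, 9.26 and 9.40 with SGC0946, with an adjusted p just above the threshold (change 0.88, adjusted p = 0.05161).

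Among the last steps, *Sc5d*, the desaturase at carbon 5, read 10.10, 9.99 and 9.97 with DMSO and 10.83, 11.03 and 10.66 with SGC0946 (change 0.82, adjusted p = 0.01759). *Dhcr7*, the reductase that yields cholesterol, did not overlap between groups (7.96, 7.95 and 8.18 against 8.60, 8.57 and 8.94) but did not pass (change 0.67, adjusted p = 0.4868). The 3 remaining genes had smaller changes that missed the adjusted test: 0.43 for *Lbr*, a sterol reductase of the nuclear envelope, 0.36 for *Tm7sf2*, its counterpart in the endoplasmic reticulum, and 0.26 for *Ebp*, a sterol isomerase. *Tm7sf2* was the only one of the 11 genes whose groups overlapped, with 8.94, 8.15 and 8.69 against 8.32, 8.10 and 8.27.

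**Figure D2:**
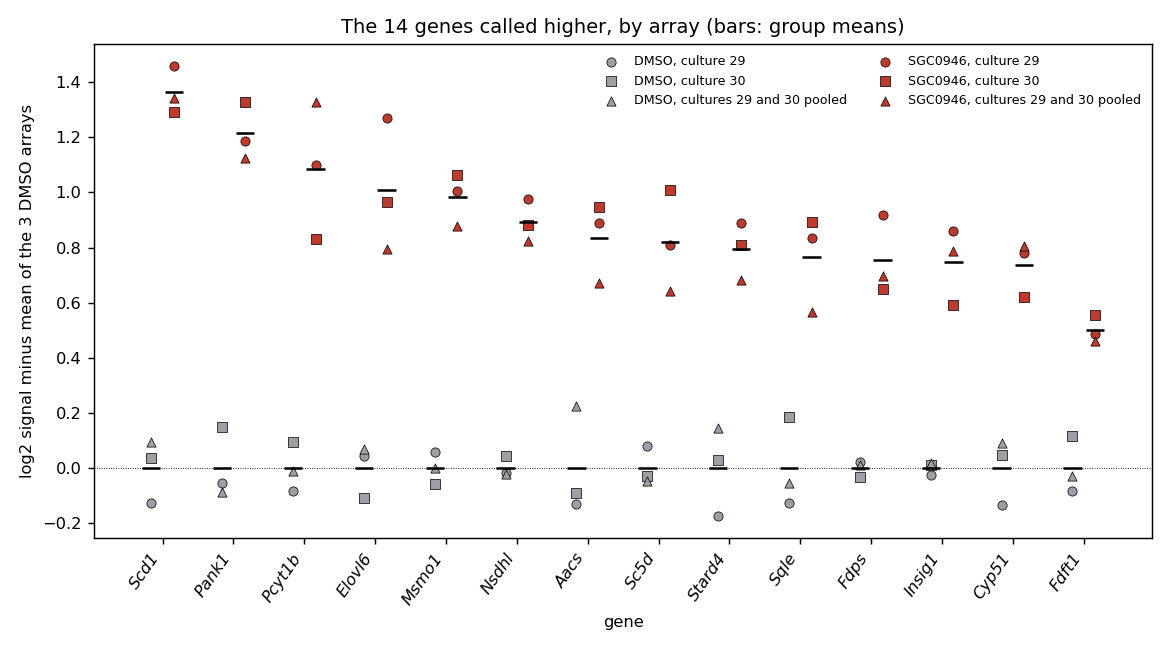
For each of the 14 genes past the adjusted test on the upper side, points give the log2 signal of each array minus the mean of the 3 DMSO arrays, with DMSO in grey and SGC0946 in red, the culture by the shape of the point, and bars at the group means. In every gene the 3 SGC0946 arrays lay above the 3 DMSO arrays, so that all 3 differences within cultures were positive by necessity.

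Of 16 measured genes of sterol uptake and SREBP control, 2 rose, 4 were higher at the unadjusted threshold, none was lower, and the median change was 0.20. *Insig1*, itself a target of SREBP, held one of the tightest sets of values: 11.28, 11.32 and 11.33 with DMSO and 12.17, 11.90 and 12.10 with SGC0946 (change 0.75, standard error 0.0738, adjusted p = 0.003069). *Stard4*, a carrier of cholesterol between membranes, read 8.74, 8.95 and 9.06 with DMSO and 9.81, 9.72 and 9.60 with SGC0946 (change 0.79, adjusted p = 0.04267). *Srebf2*, which encodes the SREBP of the sterol genes, read 10.53, 10.46 and 10.37 with DMSO and 10.97, 10.71 and 10.81 with SGC0946. Its groups did not overlap but the gene did not pass (change 0.38, adjusted p = 0.7476). *Tmem97*, a sterol-binding membrane protein, was also higher on every SGC0946 array without passing (change 0.56, adjusted p = 0.9868). *Srebf1*, encoding the SREBP better known for fatty acid genes, was dimmer and overlapped between groups (change 0.20, standard error 0.186). The escort *Scap* (change -0.16) and the proteases *Mbtps1* (change -0.26) and *Mbtps2* (change -0.21) did not pass, nor did *Insig2* (change 0.20).

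Of 17 measured genes of fatty acid synthesis 3 rose, 11 were higher at the unadjusted threshold, none was lower, and the median change was 0.34. *Scd1*, the desaturase that makes oleate, had the largest increase of all genes tested: it read 7.79, 7.96 and 8.01 with DMSO and 9.38, 9.21 and 9.26 with SGC0946 (change 1.36, standard error 0.122, adjusted p = 0.001752). It belongs to a family of similar genes, and whether their probes share signal was not tested. *Elovl6*, which lengthens palmitate, read 9.18, 9.03 and 9.21 with DMSO and 10.41, 10.11 and 9.94 with SGC0946 (change 1.01, adjusted p = 0.01759). *Aacs*, which activates acetoacetate for lipid synthesis, read 9.10, 9.14 and 9.45 with DMSO and 10.12, 10.18 and 9.90 with SGC0946 (change 0.84, adjusted p = 0.04267).

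The other members did not pass. *Fasn*, the fatty acid synthase, read 10.62, 10.51 and 10.69 with DMSO and 11.14, 11.03 and 11.03 with SGC0946 (change 0.46, adjusted p = 0.1142). *Fads2*, a desaturase of polyunsaturated fatty acids, read 11.14, 11.15 and 11.12 with DMSO and 11.65, 11.52 and 11.52 with SGC0946 (change 0.43, adjusted p = 0.05161); it was chosen after its values were seen. Neither gene overlapped between groups. *Acaca*, the carboxylase that makes malonyl units (change 0.45), *Acly*, which makes cytosolic acetyl units (change 0.31), *Acss2* (change 0.34), *Fads1* (change 0.23), *Lpin1* (change 0.40) and *Pnpla3* (change 0.60) were each higher on every SGC0946 array than on any DMSO array and did not pass. *Gpam*, the first acyltransferase of glycerolipid synthesis, was not: it read 8.65, 7.75 and 8.73 with SGC0946 against 8.89, 8.62 and 8.60 (change -0.32).

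*Pank1* and *Pcyt1b* had the largest changes after *Scd1* among the genes that rose. *Pank1* read 6.13, 6.34 and 6.10 with DMSO and 7.38, 7.52 and 7.32 with SGC0946 (change 1.22, standard error 0.161, adjusted p = 0.02267). *Pcyt1b* read 7.11, 7.29 and 7.18 with DMSO and 8.29, 8.02 and 8.52 with SGC0946 (change 1.09, standard error 0.16, adjusted p = 0.04267). Both were dimmer than the sterol genes and their groups did not overlap.

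With the culture as a block in the fit, 10 genes rose (0.0451%) and none fell, with 506 genes lower at an unadjusted p of at most 0.05. This block treats the pool as a culture of its own and does not account for the mice it shares with the others. All 10 were among the 14. The 4 genes that lost their call were *Aacs* (adjusted p = 0.1442), *Pank1* (0.0668), *Pcyt1b* (0.1305) and *Stard4* (0.1442), while the 7 genes of sterol synthesis kept theirs, with adjusted p-values from 0.01186 for *Msmo1* and *Nsdhl* to 0.04363 for *Sqle*. The number of calls rested on single arrays. Of the 16 calls 5 were left without the DMSO array of culture 29, 5 without that of the pool and 6 without that of culture 30; 4 were left without the SGC0946 array of culture 29 and 6 without that of the pool. Without the SGC0946 array of culture 30, 14 genes were called, of which 10 were among the 16. In each of these fits all 16 genes kept the sign of their change, which follows from the lack of overlap between their groups. With ordinary in place of moderated variances no gene passed, with 1036 at an unadjusted p of at most 0.05, and without the intensity trend 2 did.

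That last array stood apart from the rest. Over all genes it correlated with the other CGNP arrays at 0.988 to 0.989, whereas the highest correlation of each of the others was about 0.993, and it alone lay far out on the first principal component (34.2, against -9.77 to -3.67), which carried 31.4% of the variance. Among the 18 genes of sterol synthesis it was the lowest of the 3 SGC0946 arrays in 8, close to an even share among the 3 arrays. The median change of these 18 genes was 0.68 within culture 29, 0.50 within culture 30 and 0.65 within the pooled culture. The 14 genes that rose were higher within each culture, which follows from the lack of overlap between their groups.

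**Figure D3:**
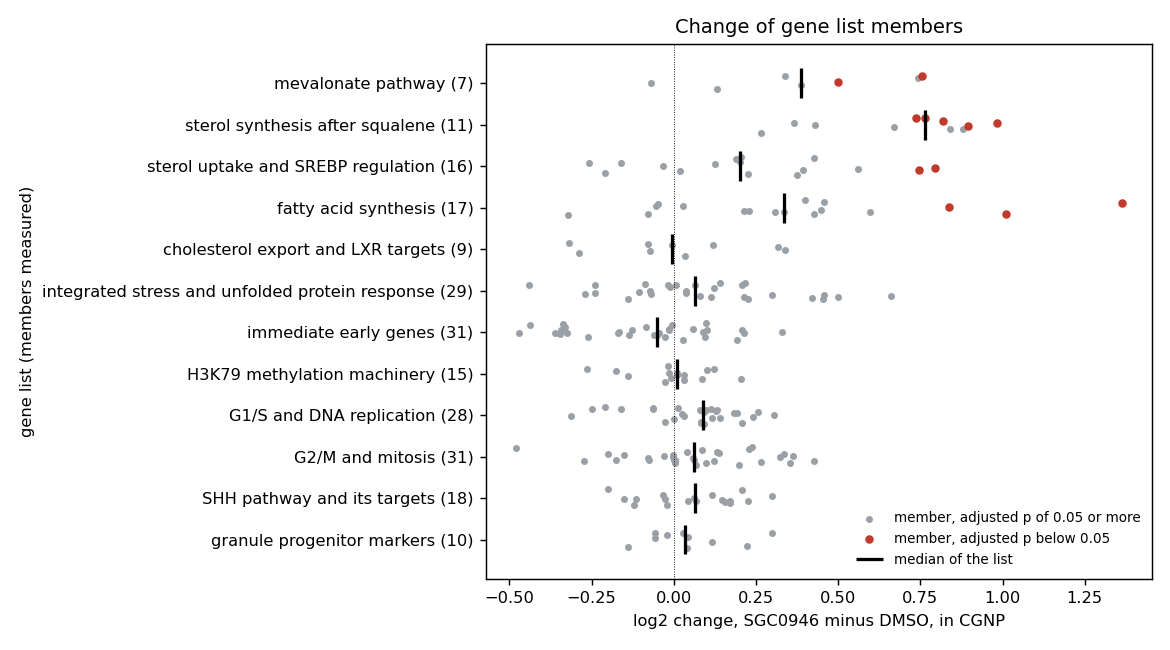
Each point is a measured member of a gene list, placed by its log2 change of SGC0946 minus DMSO in CGNP; red points passed the adjusted test, black bars mark the median of the list and the number of members stands behind its name. The lists of sterol and fatty acid synthesis had medians of 0.34 to 0.76 and that of uptake and SREBP control 0.20, and the other 8 lists plotted, of the 35 examined, had medians between -0.05 and 0.09.

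Only 2 genes fell past the adjusted test. *Sprr2f*, a member of a family of small epithelial proteins, was dim, below the array medians of 4.73 to 4.80, with 4.56, 4.64 and 4.54 with DMSO and 3.81, 3.88 and 4.00 with SGC0946 (change -0.68, adjusted p = 0.03868). *Snord22*, a small nucleolar RNA processed from a host transcript, read 11.23, 11.32 and 11.27 with DMSO and 10.87, 10.72 and 10.81 with SGC0946 (change -0.48, adjusted p = 0.04573). Neither overlapped between groups, where 4.48% of all genes lay below every DMSO array. Neither kept its call with the block or without any 1 of the 6 arrays.

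Among genes below the adjusted test, 10 were named as the largest decreases at the unadjusted threshold with no overlap and the same sign in each culture. Of these 10, *Nf2*, *Ptms*, *Trmt1* and *Fer* rested on the SGC0946 array of culture 30, which was more than 1 log2 unit below every other array. *Nf2*, encoding the tumour suppressor merlin, read 8.71, 8.71 and 8.91 with DMSO and 8.41, 6.07 and 8.50 with SGC0946. Its change of -1.12 became -0.32 without that array. *Ptms* moved from -0.90 to -0.49, *Trmt1*, a transfer RNA methyltransferase, from -0.84 to -0.35, and *Fer*, a tyrosine kinase, from -0.73 to -0.25; *Zfp40* moved from -0.79 to -0.49.

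The other 5 held most of their change without it. *Dusp10* and *Dusp7* encode phosphatases that switch off MAP kinases. *Dusp10* read 6.36, 6.70 and 6.65 with DMSO and 5.51, 5.21 and 6.11 with SGC0946 (change -0.96, -0.76 without the array, unadjusted p = 0.001733, adjusted p = 0.8006). *Dusp7* read 5.87, 6.12 and 5.55 with DMSO and 5.15, 4.89 and 5.28 with SGC0946 (change -0.74, adjusted p = 0.9504). *Engase*, a cytosolic enzyme that removes glycans from proteins, had the most even set (6.49, 6.21 and 6.09 against 5.57, 5.37 and 5.53; change -0.77, adjusted p = 0.7476). *Rex2* (change -0.81) and *Lamtor3-ps*, a pseudogene whose signal may include that of its parent gene (change -0.75), completed the set.

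**Figure D4:**
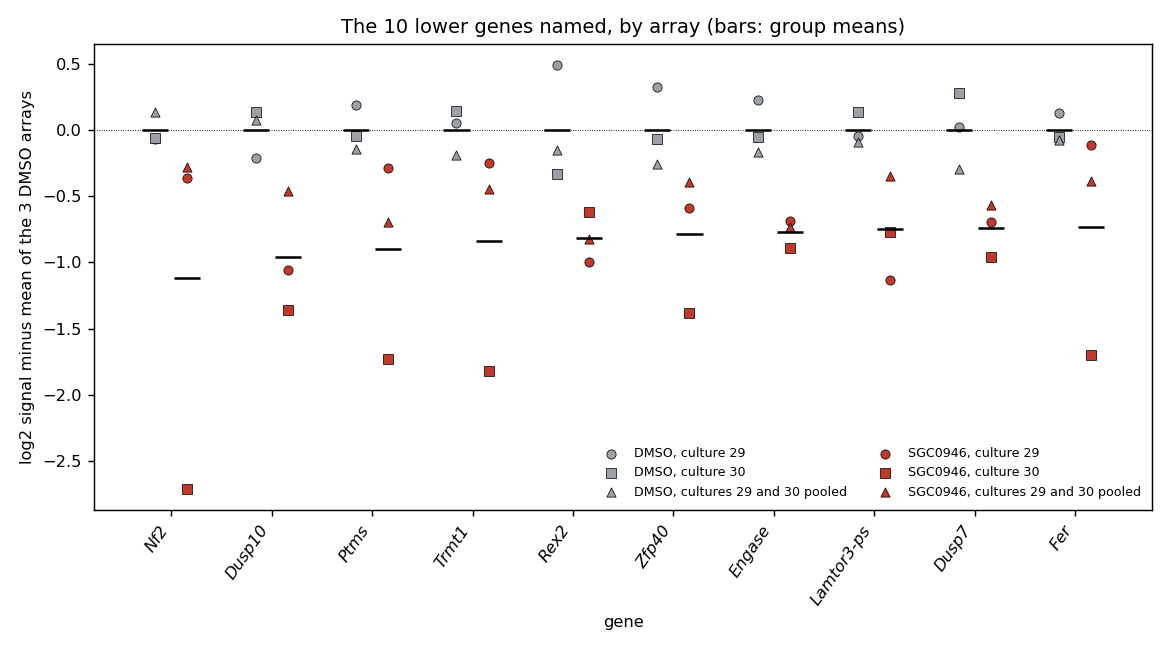
For each of the 10 lower genes named, points give the log2 signal of each array minus the mean of the 3 DMSO arrays, with DMSO in grey, SGC0946 in red, the culture by shape and bars at the group means. In *Nf2*, *Ptms*, *Trmt1* and *Fer* the SGC0946 array of culture 30 lay far below the rest, and in *Engase* the 3 SGC0946 arrays lay close together; none of the 10 passed the adjusted test.

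The response to amino acid shortage and unfolded protein had no member past the adjusted test among 29 measured, with 7 higher and 1 lower at the unadjusted threshold (2.48% and 2.1% of all genes were) and a median of 0.07. *Atf4*, the transcription factor at its centre, read 10.63, 10.56 and 10.70 with DMSO and 10.94, 10.98 and 10.86 with SGC0946 (change 0.30, adjusted p = 0.8762). *Mthfd2*, of mitochondrial folate metabolism, read 6.61, 7.15 and 7.05 against 7.77, 7.59 and 7.43 (change 0.66), and *Ddit4*, an inhibitor of mTORC1, 9.15, 9.41 and 9.36 against 9.92, 9.68 and 9.58 (change 0.42). *Chac1* (change 0.50) and *Sdf2l1* (change 0.45) were also above every DMSO array. *Trib3* differed in sign (change -0.44), and *Ddit3*, the other classical marker, overlapped between groups (change -0.11).

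Immediate early genes, which answer growth factors and depolarization within the hour, had no member past the test among 31 measured, with 6 lower (2.1% of all genes were) and none higher at the unadjusted threshold and 8 below every DMSO array (4.48% of all genes). *Fos* had the smallest p-value, with 10.32, 10.47 and 10.36 with DMSO and 10.12, 10.04 and 9.98 with SGC0946 (change -0.34, unadjusted p = 0.002607, adjusted p = 0.9034). *Nr4a3* (change -0.47), *Nr4a1* (change -0.44), *Fosl2* (change -0.34) and *Npas4* (change -0.33) were transcription factors of the same class with non-overlapping groups. *Jun* read 10.02, 9.39 and 9.94 against 10.13, 10.12 and 10.14, so that much of its change of -0.35 came from culture 30. The median of the list was -0.05.

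Of the proliferation lists, no member of the 28 for G1/S and replication and no member of the 31 for G2/M and mitosis reached an unadjusted p of at most 0.05, and the medians were 0.09 and 0.06. The largest changes were -0.48 for the cyclin *Ccna2* (7.58, 8.05 and 8.16 with DMSO against 7.84, 6.82 and 7.70) and 0.43 for the spindle checkpoint kinase *Ttk*, both with overlapping groups. *Mki67* read 8.41, 8.28 and 8.31 with DMSO and 8.36, 7.49 and 8.34 with SGC0946 (change -0.27, standard error 0.211). Within cultures 29, 30 and pooled, *Mki67* differed by -0.05, -0.79 and 0.03 and *Ccna2* by 0.26, -1.23 and -0.46. *Cdkn1b*, which encodes the inhibitor p27 that accompanies cell cycle exit, was lower on every SGC0946 array (10.72, 10.70 and 10.62 against 10.88, 11.02 and 10.81) without passing (change -0.22, adjusted p = 0.9868). *Cdkn1a*, encoding the related inhibitor p21, overlapped between groups (change -0.02, standard error 0.0824). Another inhibitor gene, *Cdkn2c*, was higher on every SGC0946 array without passing (change 0.39, adjusted p = 0.9868). Of 22 measured CDK inhibitor and p53 target genes, 1 was higher and 1 lower at the unadjusted threshold (2.48% and 2.1% of all genes were).

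The target of the inhibitor was measured as a whole transcript. *Dot1l* read 9.17, 9.40 and 9.51 with DMSO and 9.36, 9.35 and 9.29 with SGC0946 (change -0.03, standard error 0.114). None of the 15 genes of H3K79 methylation and its elongation complexes and none of 24 other histone lysine methylation genes reached the unadjusted threshold in limma, with medians of 0.01 and -0.01 on the log2 scale. Of 18 genes of the SHH pathway 1 did, *Sfrp1* (change 0.30, adjusted p = 0.9868), which is also in the progenitor marker list. *Plxna2*, a semaphorin receptor of granule cells, was higher on every SGC0946 array (8.82, 8.88 and 8.72 with DMSO against 9.13, 9.24 and 9.21; change 0.39), and *Syt1*, a calcium sensor of synaptic vesicles, lower (change -0.35); neither passed. Of the 35 lists examined, 4 had a member past the adjusted test, those of the mevalonate pathway, sterol synthesis after squalene, sterol uptake and SREBP control, and fatty acid synthesis. The other 31 had none. Among these was a further lipid list, that of cholesterol export and the targets of the sterol receptor LXR, of whose 9 measured members 4 had a higher and 5 a lower mean (median -0.01).

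Markers of the labelled cell type were bright on average, although 1 of the 10 lay below the array median on every array. The mean log2 signal of 10 granule progenitor markers was 9.15 to 9.22 with DMSO and 9.20 to 9.28 with SGC0946, whereas the array medians were 4.73 to 4.80. Of other cell types, 10 markers of astroglia had means of 8.73 to 8.91 with DMSO and 8.73 to 8.99 with SGC0946; those of the oligodendrocyte lineage lay at 6.60 to 6.82 and of microglia at 6.40 to 6.72 over all arrays. Of 9 endothelial and 8 choroid plexus markers, 6 each were below the array median on all arrays. The ranges of these means overlapped between DMSO and SGC0946 in each of the 9 marker lists. No marker passed the adjusted test, and 2 reached the unadjusted threshold (*Sfrp1* and *Pdgfrb*, a pericyte marker, change 0.36). Their part in the lipid genes' change was not tested.

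The same inhibitor was given for 44 h to CGN. By the labels, days in vitro and, for 1 array, age went with the treatment and cannot be told apart from it. The paper's methods differ from these labels, giving 1 age of mice and 1 treatment schedule for CGN. No gene had a response that differed between CGNP and CGN at an adjusted p below 0.05 in limma (0%), with only 2 arrays per group in CGN. Of 22180 genes, 692 had a higher and 513 a lower response in CGNP at an unadjusted p of at most 0.05. Together these are near the share that this threshold passes where no response differs. Of the 14 genes that rose in CGNP, 9 passed the adjusted test in CGN, where 32 of 22180 genes did in either direction. At an unadjusted p of at most 0.05, 13 of the 14 were also higher in CGN (3.4% of all genes were). *Elovl6* was the exception, with a change of 0.19 (standard error 0.202) in CGN against 1.01 in CGNP; the difference of 0.82 had a standard error of 0.261 and an adjusted p of 0.7922. The largest difference of opposite sense among the 14 was that of *Stard4*, with 0.79 in CGNP and 1.44 in CGN (difference -0.64, standard error 0.223, adjusted p = 0.8164). *Hmgcs1*, which missed the test in CGNP at 0.34, changed by 0.86 in CGN (difference -0.52, adjusted p = 0.5202). The 2 genes that fell past the adjusted test in CGNP had the opposite sign in CGN: 0.71 for *Sprr2f* and 0.40 for *Snord22*. Of the 6 immediate early genes lower in CGNP at the unadjusted threshold, *Jun* was higher in CGN (change 0.37). The others were lower in CGN, from -0.64 for *Fosl2* to -1.33 for *Npas4*. Of these, *Fos* and *Npas4* passed the adjusted test in limma there (adjusted p = 0.008366 and 0.004981), and the median of the list was -0.02.

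**Figure D5:**
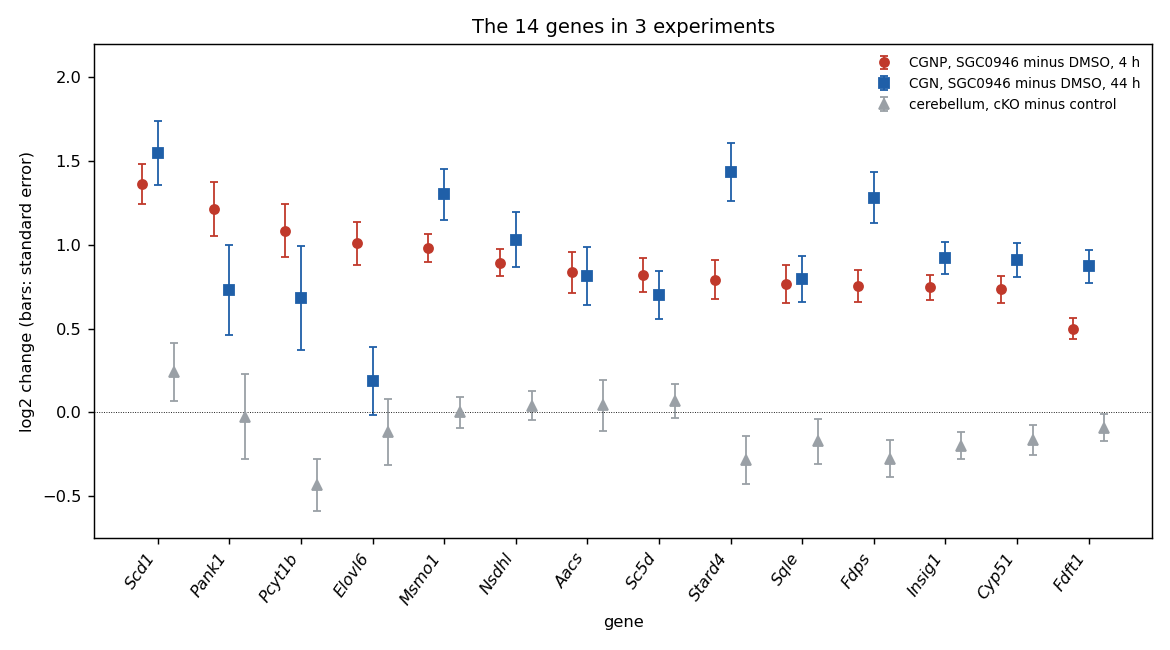
For the 14 genes that rose in CGNP, points give the log2 change of SGC0946 minus DMSO in CGNP (red) and CGN (blue) and of cKO minus control in whole cerebellum (grey), with bars of 1 standard error. Only *Elovl6* had a CGN point near 0, at 0.19, while the cerebellar points ran from -0.43 for *Pcyt1b* to 0.24 for *Scd1*.

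In cerebella that had lost *Dot1l* in the Atoh1 lineage, 9 of the 14 genes had a lower and 5 a higher mean than in controls. At an unadjusted p of at most 0.05, 3 differed, all lower: *Pcyt1b* (change -0.43), *Fdps* (-0.28) and *Insig1* (-0.20). The share of all genes that reached this unadjusted threshold in cerebellum was not counted here. Whether 3 of 14 exceeds that share therefore cannot be said. None of the 14 passed the adjusted test there. The response in CGNP differed from that to deletion in 14 of all genes at an adjusted p below 0.05 (0.0631%). Of these, 6 were among those that rose in CGNP: *Pcyt1b*, *Fdps*, *Msmo1*, *Insig1*, *Cyp51* and *Nsdhl*. The genes that rose were chosen for their change in CGNP, which also enters this contrast, so the overlap was favoured in advance. The difference was 0.98 for *Msmo1* (standard error 0.131, adjusted p = 0.004752), whose change in cerebellum was 0.00, and 0.94 for *Insig1* (standard error 0.117, adjusted p = 0.00432). *Lss* (difference 1.12, adjusted p = 0.03293) and *Lbr* (difference 1.10, adjusted p = 0.0222) also differed, *Lbr* being lower in cKO by a change of -0.67 (adjusted p = 0.04972). These experiments differ in tissue, strain, age, duration and normalization, none of which can be told apart from drug against deletion.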

How the data were processed

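Total RNA of pooled culture wells or of whole cerebellum was measured on 18 Affymetrix Mouse Gene 2.0 ST arrays, 6 of them of CGNP. The authors deposited log2 signals per transcript cluster, computed in Partek by RMA with quantile normalization, median polish and an adjustment for the probes' GC content and sequence. Tool versions were not given. Sorted values differed by 0.0098 to 0.0608 between CGNP arrays and by 0.193 to 0.456 between experiments, as after normalization within each experiment. Array data give no read depth; the number of arrays limits the precision, with a median standard error of 0.134. The authors' comparison tables (p-values, q-values and fold changes) were not used.

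Of 34472 clusters 23521 had 1 gene symbol, 1820 several and 9131 none named here. Each of 22180 genes was represented by its brightest cluster, without a filter on dim signals. The 6 CGNP arrays were fitted in limma 3.58.1 (R 4.3.3) by lmFit and eBayes, unpaired and with a variance trend over intensity, with Benjamini-Hochberg adjustment over all genes and two-sided tests; differences of responses came from interaction contrasts over 10 or 12 arrays. Treated and control dishes shared mice by their numbers, although deviations of same-numbered arrays correlated at only 0.0093 to 0.0351; the culture as a block was an alternative. Alternatives included other variance models, normalizations, filters and samples. The steps were tested on simulated data. The members, the 35 gene lists (616 genes, 571 measured) and the tests were chosen with earlier results of these data known, and the lists are described by counts and medians with no test of their own. Named were the genes past the adjusted test and the 10 largest decreases at the unadjusted threshold without overlap and with 1 sign in all cultures. To these were added up to 6 members per list, some but not all of the genes the paper names, and the largest differences of responses. Predicted and numbered genes were only counted. Further members of the lists, *Snord22* and *Fads2* among them, were named after their values were seen, to account for the lists and calls. Promoter windows are those of RefSeq (GRCm38.p6). Some genes are not reported here.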

Additional observations from a re-analysis of the deposited data

Results flagged for a closer look

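The response of CGNP to SGC0946 differed from the effect of *Dot1l* deletion in cerebellum in 14 genes by an interaction contrast in limma, 10 with the higher value in CGNP and 4 with the lower. Of the genes that rose in CGNP, the difference was 1.52 for *Pcyt1b* (adjusted p = 0.007194), 1.03 for *Fdps*, 0.98 for *Msmo1*, 0.94 for *Insig1*, 0.90 for *Cyp51* and 0.85 for *Nsdhl*. The largest differences came from cerebellum. The muscle genes *Actc1*, a cardiac actin (difference -3.74), and *Mymk*, a fusion protein of myoblasts (difference -2.00), were higher in cKO by 3.82 and 1.86 and changed by 0.08 and -0.14 in CGNP. *Cyp4f39*, a fatty acid hydroxylase, differed by -1.72, with 1.54 in cKO and -0.17 in CGNP. *Ptcd2*, of mitochondrial RNA metabolism, differed by 1.52, with -1.14 in cKO and 0.38 in CGNP. Tissue, strain, age and normalization cannot be told apart from the treatments in these differences.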

How the results depend on the processing

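With the culture as a replicate block, 10 genes were called, 0 of them lower. One fit over the 10 culture arrays called 7 genes, all higher (lower 0, with 406 lower at an unadjusted p of at most 0.05 in limma). Ordinary variances called 0 (1036 unadjusted), the fit without an intensity trend 2, both higher (lower 0), and the fit without the pooled culture 0 (990 unadjusted). With mean signals above 5 only, 1 gene was lower and 474 reached the unadjusted threshold (230 higher, 244 lower), among fewer genes tested. The mean of a gene's clusters left 1 lower gene. Leaving out each array in turn gave 4 to 14 calls, 4 to 14 higher and 0 lower, and 381 to 772 genes lower at the unadjusted threshold. Chosen after seeing the data were the fits without culture 29 (0 calls, 1085 unadjusted), without culture 30 (13 calls, 0 lower) and over all clusters (5 calls, all higher, lower 0). Differences from CGN numbered 0 to 1 with each array left out (1 without the SGC0946 array of culture 30). Differences from cKO numbered 9 to 13 with each array left out (9 without the SGC0946 array of culture 29) and 23 with array medians subtracted. The cause of these shifts was not tested.

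The signs of small changes turned for *Actc1* (-0.0421 to 0.2133 with each array left out; -0.0421 without the DMSO array of culture 29, -0.0129 without the SGC0946 array of culture 30), *Ggps1* (-0.2134 to 0.0447 with each array left out; 0.0447 without the pooled SGC0946 array, 0.0442 without the pooled culture, 0.0016 without culture 29) and *Pmvk* (-0.1005 without the pooled culture). The genes called kept their direction in each alternative that tested them. Their groups did not overlap, so leaving out arrays or a culture could not have turned it. The median change of the 18 sterol genes ran from 0.63 to 0.73. With 3 arrays a group on 2 mice and a median standard error of 0.134, small changes could not be resolved.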

Other observations

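Outside the lipid genes, the list of heat shock and proteasome genes had 2 of 15 members lower at an unadjusted p of at most 0.05 (2.1% of all genes were) and a median change of -0.08. The median was -0.18 within culture 30, whose SGC0946 array stood apart, and -0.05 within each of the other cultures. Of the 2 members, *Psma1*, a proteasome subunit, differed by -0.04, -0.77 and -0.23 within cultures 29, 30 and pooled. *Hsph1*, a large chaperone, read 9.72, 9.48 and 9.21 with DMSO (cultures 29, 30 and pooled) and 9.16, 8.62 and 9.11 with SGC0946, without overlap and without passing the adjusted test (change -0.51, adjusted p = 0.9868). *Snrpe*, encoding a core protein of the spliceosome, was chosen after its values were seen, for a change close to that of *Pank1*. It read 6.90, 6.07 and 6.61 with DMSO and 7.66, 8.02 and 7.53 with SGC0946 (change 1.21, adjusted p = 0.1734). Its groups did not overlap, but its DMSO values ranged more widely than those of the genes that passed.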
